A study of Mus musculus with 39 samples.

Results

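Trimethylation of lysine 9 of histone H3 (H3K9me3) was compared between the Oct4+ and Pdgfra+ populations of naive extra-embryonic endoderm (nEnd), a mouse culture that holds cells resembling primitive endoderm beside de-differentiated cells resembling epiblast. All peak lists whose labels name H3K9me3 and one of these populations were taken, 6 of the 39 samples of the series, with 3 lists per population. They held 29871, 22912 and 14160 peaks in Oct4+ replicates 1 to 3 and 29970, 5322 and 13110 peaks in Pdgfra+ replicates 1 to 3. The profiling method was CUT&Tag, in which an antibody brings a transposase to the mark and the released DNA is sequenced. Every library came from the OCT4-mCherry reporter line, grown as nEnd in medium with Activin A, CHIR99021 and LIF, and labelled as untreated. Oct4+ cells were positive for OCT4-mCherry alone and Pdgfra+ cells for PDGFRA-APC alone in FACS. The 2 populations therefore share a reporter line and a culture medium, and differ by the sort gate. Nothing in the labels says that replicates came from separate cultures, so p-values measure the spread between these libraries, which may be technical. Cells of 1 line were used, the cultures had fibroblast feeders, and fibroblasts also carry PDGFRA. No genotype, age or drug separates the groups.

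The sort was checked in the H3K27ac lists of the same populations, since H3K27ac marks active gene starts. Of 6 pluripotency markers (Pou5f1, Nanog, Sox2, Esrrb, Zfp42 and Tfcp2l1), 4 to 5 had an H3K27ac peak within 1 kb of their start in each Oct4+ library and 0 to 1 in each Pdgfra+ library. Of 6 endoderm markers (Pdgfra, Gata6, Gata4, Sox17, Sox7 and Col4a1), 5 were marked in every Pdgfra+ library and 0 to 3 in the Oct4+ libraries. Esrrb and Sox17 were marked in none of the 6. All 6 fibroblast markers (Col1a1, Col1a2, Col3a1, Thy1, Twist2 and Prrx1) were without an H3K27ac peak in all 6 libraries.

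H3K9me3 is the mark of constitutive heterochromatin. Enzymes such as SETDB1 and SUV39H1 deposit it and HP1 proteins bind it. In early embryonic cells it covers endogenous retroviruses, one parental copy of imprinting control regions, germline genes and, in many cell types, the clusters of zinc finger genes. Zinc finger proteins with a KRAB domain bind DNA through tandem C2H2 fingers and recruit TRIM28 and SETDB1 to repeats, so that genes for the targeting factors of H3K9me3 are themselves among its substrates.

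The sequence under the summits of peaks was described for regions listed in one population alone. Peaks of the 6 lists were merged into 51565 regions, of which 4529 had a peak in 3 of 3 Oct4+ and 0 of 3 Pdgfra+ lists (8.78%) and 870 the reverse (1.69%). A region was then called for one population when all 3 of its lists had a peak there among their 5322 peaks of highest total signal (the length of the shortest list, so that each library contributed equal numbers) and no list of the other population had a peak of any rank. Equal numbers alone, merged into 14041 regions, gave 1434 (10.2%) and 972 (6.92%). The rule with both conditions, called strict here, gave 675 Oct4-only regions (1.31% of the merged regions) and 409 Pdgfra-only regions (0.793%), while 679 regions were among the 5322 highest peaks of 6 of 6 lists. The window of 300 bases around each summit was then searched for the 12-base sequence found in most windows of its class, on both strands and leaving out tandem repeats of units up to 4 bases. The leading sequence of the Oct4-only windows, AACTGAGGTGAT or its complement ATCACCTCAGTT, stood in 31 of 675 of them and in 0 of the 409 Pdgfra-only and 0 of the 679 shared windows. The leading sequence of the Pdgfra-only windows, GAGAAGCCCTAT or its complement ATAGGGCTTCTC, stood in 11 of 409, in 0 Oct4-only windows and in 1 shared window. That is 4.59 and 2.69% of the windows of their own classes. Each sequence was chosen for its count in its own class, so the counts by class are a description. The windows below are GRCm38 reference sequence on the plus strand, with these sequences and their complements in capitals. They are the windows of the best-ranked regions that hold the leading sequence of their class and no annotated UTR.
Oct4-only, chr12:47940347-47940646, intergenic, 1114 kb from Nova1: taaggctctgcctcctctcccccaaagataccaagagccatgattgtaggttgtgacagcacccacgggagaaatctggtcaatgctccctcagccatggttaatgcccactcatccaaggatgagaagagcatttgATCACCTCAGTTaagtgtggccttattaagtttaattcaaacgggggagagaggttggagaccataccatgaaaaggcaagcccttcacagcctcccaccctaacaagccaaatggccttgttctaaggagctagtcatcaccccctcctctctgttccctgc
Oct4-only, chr5:31315602-31315901, intron of Gckr: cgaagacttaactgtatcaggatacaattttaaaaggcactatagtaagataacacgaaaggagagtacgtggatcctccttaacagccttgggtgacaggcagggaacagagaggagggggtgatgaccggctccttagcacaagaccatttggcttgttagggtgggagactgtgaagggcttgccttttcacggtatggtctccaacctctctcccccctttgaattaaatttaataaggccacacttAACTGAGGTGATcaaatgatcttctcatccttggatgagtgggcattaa
Pdgfra-only, chr5:138606624-138606923, exon of Zfp68: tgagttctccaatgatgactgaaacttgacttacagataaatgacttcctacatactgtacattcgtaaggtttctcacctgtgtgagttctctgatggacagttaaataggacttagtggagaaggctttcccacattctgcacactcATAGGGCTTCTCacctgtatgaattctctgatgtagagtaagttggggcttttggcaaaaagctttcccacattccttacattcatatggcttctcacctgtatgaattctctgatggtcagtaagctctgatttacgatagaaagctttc
Pdgfra-only, chr7:30152826-30153125, processed pseudogene Gm10988 beside Zfp146: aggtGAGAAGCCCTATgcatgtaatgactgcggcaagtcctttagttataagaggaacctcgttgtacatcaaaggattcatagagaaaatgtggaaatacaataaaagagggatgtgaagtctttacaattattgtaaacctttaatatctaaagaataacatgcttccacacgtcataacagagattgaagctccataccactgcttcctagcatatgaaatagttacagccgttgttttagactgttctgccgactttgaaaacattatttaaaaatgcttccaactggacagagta

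The 31 Oct4-only windows with the first sequence lay on 17 chromosomes, 26 between genes and 5 in introns, and on average 74.5% of their bases were repeat-masked. Of the 11 Pdgfra-only windows with the second sequence, 9 overlapped a zinc finger gene and 9 had their summit in a protein-coding exon, with 23.9% of bases masked. As background, the conserved linker between adjacent C2H2 fingers can be encoded by such a sequence; the reading frame was not checked in these windows.

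The same sequences were counted at the summits of all 5322 peaks of each equal-number list, in which a library enters alone. AACTGAGGTGAT or its complement was found at 67, 69 and 63 summits of Oct4+ replicates 1 to 3 and at 0, 1 and 0 summits of Pdgfra+ replicates 1 to 3. GAGAAGCCCTAT or its complement was found at 2, 3 and 1 Oct4+ summits and at 12, 12 and 13 Pdgfra+ summits. Replicates of one population were close to each other and the populations did not overlap. These counts come from the lists that chose the sequences and are a description. Among 32817 promoter sequences of the same length from RefSeq (GRCm38), the first sequence occurred in 2 and the second in 1.

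Windows shared by all 6 lists were led by TCCTGAGTCAGA or its complement TCTGACTCAGGA, in 18 of 679 shared windows, 8 of 675 Oct4-only windows and 0 of 409 Pdgfra-only windows, and in 7 of the 32817 promoters. At the summits of the equal-number lists it was found 121, 105 and 116 times in Oct4+ and 48, 42 and 55 times in Pdgfra+. The sequence thus occurred under peaks of both populations, at more of the Oct4+ summits, and 65.2% of the bases of its shared windows were masked. An example with a listed peak in every library follows, with the sequence in capitals.
Shared, chr13:99001336-99001635, intergenic, 10.9 kb from 1700024P04Rik: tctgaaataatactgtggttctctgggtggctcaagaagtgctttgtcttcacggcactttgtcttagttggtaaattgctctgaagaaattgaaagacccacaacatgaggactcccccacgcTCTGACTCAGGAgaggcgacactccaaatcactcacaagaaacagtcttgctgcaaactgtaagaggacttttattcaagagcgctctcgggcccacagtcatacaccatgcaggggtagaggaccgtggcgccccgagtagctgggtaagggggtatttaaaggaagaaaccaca

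Across whole lists the Oct4+ peaks lay more on repeats and the Pdgfra+ peaks more in genes. Repeat-masked sequence made up 44.9, 46.2 and 47.9% of the bases under all peaks of Oct4+ replicates 1 to 3 and 34.6, 34.6 and 35.6% of those of Pdgfra+ replicates 1 to 3, against 36.4% of the genome. Oct4+ lists thus stood above the genome and Pdgfra+ lists slightly below it. With equal numbers of peaks the values were 46.6, 46.3 and 47.2% against 32.3, 34.6 and 34.8%. Protein-coding gene bodies held 24.3, 23.8 and 23.9% of the Oct4+ bases and 26.8, 29.8 and 29.9% of the Pdgfra+ bases, both below the 39.3% of the genome that such bodies cover. The differences, of 11.4 points for repeats and of -4.82 points for gene bodies (Oct4+ minus Pdgfra+), separated all 3 libraries of one population from all 3 of the other. Their exact two-sided permutation p was 0.10, the smallest that 3 against 3 libraries can give (adjusted p = 0.167 over 5 measures). The design could not pass a threshold of 0.05.

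**Figure D1:**
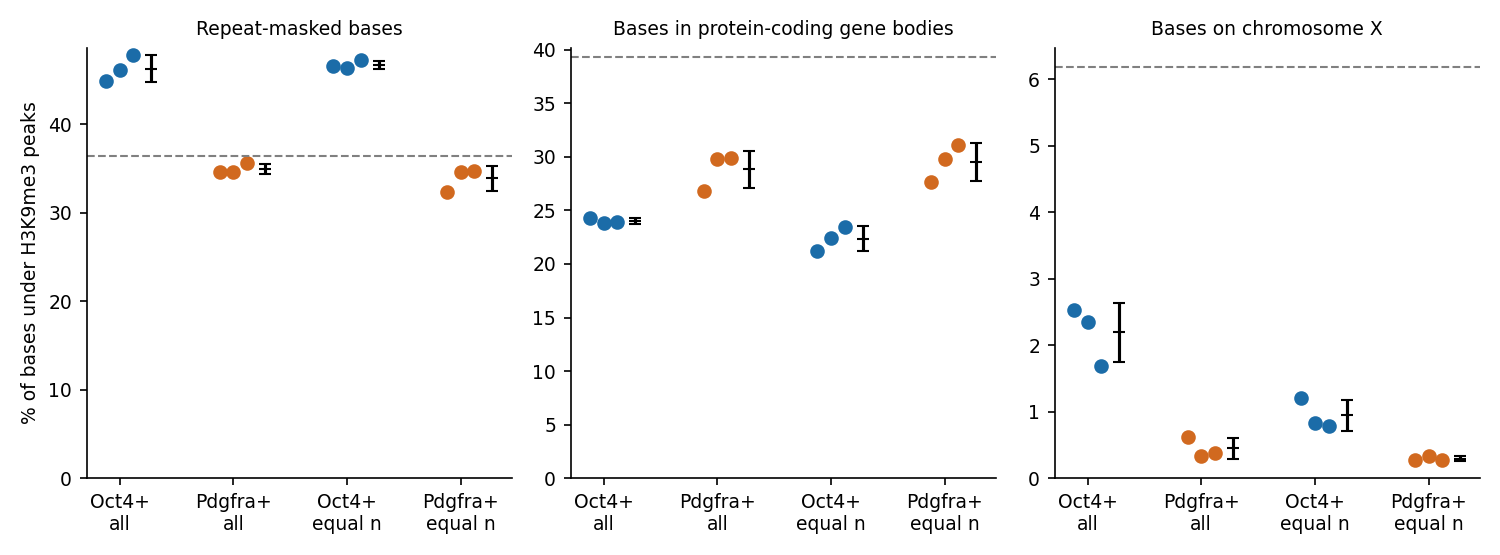
Share of the bases under H3K9me3 peaks that are repeat-masked, in protein-coding gene bodies or on chromosome X, in percent. Points are libraries, bars are mean ± SD (n = 3), dashed lines are the share of the genome, and equal n denotes the 5322 peaks of highest total signal per list; the populations do not overlap in any panel.

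Chromosome X was poor in listed H3K9me3 in both populations and poorer in Pdgfra+. It held 2.53, 2.35 and 1.69% of the Oct4+ bases and 0.624, 0.335 and 0.386% of the Pdgfra+ bases, against 6.18% of the genome (p = 0.10 by exact permutation, 0.167 adjusted). Among equal numbers of peaks the values were 1.21, 0.828 and 0.791% and 0.272, 0.335 and 0.275%, lower in the 5 longer lists and the same in Pdgfra+ replicate 2, which is the shortest list. With all peaks chromosome Y held 0.131, 0.123 and 0.107% of the Oct4+ and 0.0674, 0 and 0.0241% of the Pdgfra+ bases, against 3.33% of the genome. These genome shares are not scaled to the number of copies of X or Y in the cells.

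Total covered length did not separate the populations. It was 74.6, 60.7 and 31.8 Mb in Oct4+ and 122, 18.2 and 45.6 Mb in Pdgfra+ (p = 0.90 by exact permutation, 0.90 adjusted). The share of the 21911 protein-coding genes with a peak in their body was 18.4, 15.5 and 10.7% in Oct4+ and 17.8, 5.68 and 12.3% in Pdgfra+ (p = 0.60 by exact permutation, 0.75 adjusted). Within each population both measures followed the order of the list lengths. Among equal numbers of peaks the shares were 4.81, 4.94 and 4.92% against 5.38, 5.68 and 6.63%, now higher in Pdgfra+ (p = 0.10 by exact permutation, 0.125 adjusted). Number of reads is not given for any library, so depth is unknown and a gene without a listed peak may still carry the mark.

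On average, libraries of one population shared more sequence with each other than with the other population. Over all peaks the Jaccard index (bases in both lists over bases in either) averaged 0.383 within Oct4+, 0.200 within Pdgfra+ and 0.137 between them. Its excess within over between populations was 0.155 (one-sided exact permutation p = 0.10, the smallest of 10 partitions). Single pairs ran from 0.123 to 0.249 within Pdgfra+ and from 0.0933 to 0.171 between the populations, so that these ranges overlapped. With equal numbers of peaks the averages were 0.411, 0.271 and 0.123. The ranges were then 0.225 to 0.299 within Pdgfra+ and 0.0946 to 0.145 between the populations, without overlap.

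Zinc finger genes carried listed H3K9me3 more often in Pdgfra+ than in Oct4+ cells. With equal numbers of peaks, 29, 32 and 30 of the 395 genes with a Zfp or Rslcan symbol had a peak in Oct4+ replicates 1 to 3, and 105, 94 and 110 in Pdgfra+ replicates 1 to 3. That is 7.68% ± 0.387 of them in Oct4+ and 26.1% ± 2.07 in Pdgfra+ (SD, n = 3), while all protein-coding genes stood at 4.89% ± 0.0724 and 5.90% ± 0.652. The excess of zinc finger genes over all genes was 2.79 ± 0.326 points in Oct4+ and 20.2 ± 1.79 points in Pdgfra+. With all peaks it was 4.21 ± 0.624 and 22.8 ± 4.22 points, and no Pdgfra+ library overlapped an Oct4+ library on either scale.

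Symbols do not name every such gene, so the coding sequences of the annotation were also translated and searched for C2H2 fingers. At least 3 finger matches were found in 656 genes, 358 of them with a Zfp or Rslcan symbol. With equal numbers of peaks, 6.10, 6.25 and 6.40% of these 656 genes had a peak in Oct4+ and 23.9, 20.9 and 25.8% in Pdgfra+. With all peaks the shares were 22.3, 18.6 and 13.3% against 41.3, 20.9 and 34.1%, where Pdgfra+ replicate 2, the shortest list, lay within the Oct4+ range. Genes chosen by their fingers thus separated the populations with equal numbers of peaks and not with all peaks, while genes chosen by name did so with both, by a narrow margin with all peaks (23.3% in Oct4+ replicate 1 and 23.8% in Pdgfra+ replicate 2).

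**Figure D2:**
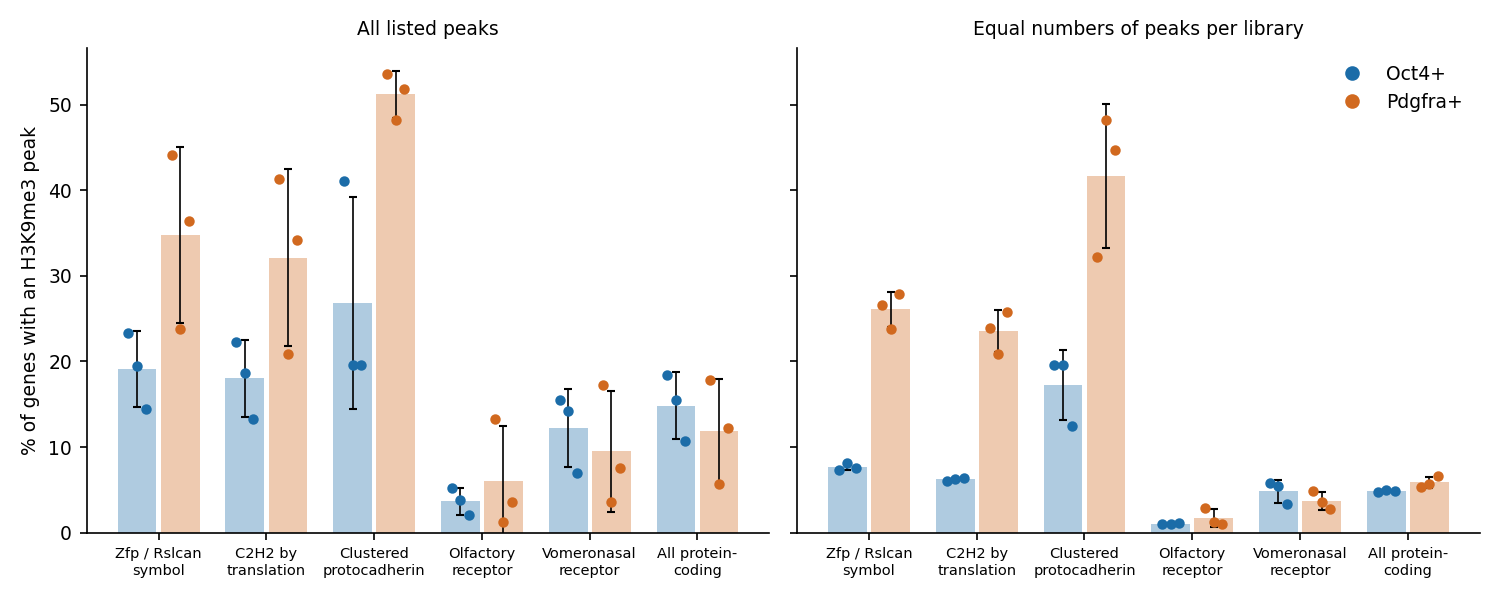
Share of genes of 5 families and of all protein-coding genes with an H3K9me3 peak in their body, in percent, with all listed peaks and with equal numbers per library. Bars are means, error bars SD, points libraries (n = 3); both zinc finger lists stand higher in all 3 Pdgfra+ libraries with equal numbers of peaks.

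Clustered protocadherins, cell adhesion proteins of neurons that share constant exons, separated the populations too. Of 56 such genes, 11, 11 and 7 had a peak in the Oct4+ and 18, 27 and 25 in the Pdgfra+ equal-number lists. The gamma genes overlap one another, so that a peak in their shared part counts for several genes. Receptor families gave no such separation, with 0.970, 1.06 and 1.15% of 1134 olfactory receptor genes in Oct4+ and 2.91, 1.23 and 1.06% in Pdgfra+.

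Within zinc finger genes the mark of Pdgfra+ cells lay towards the end of the gene, where the long exon that encodes the fingers usually stands. Gene bodies were divided into 10 bins of equal length from start to end. In the last bin, 2.78, 2.03 and 2.28% of the 395 genes were covered in the Oct4+ and 21.3, 15.9 and 21.01% in the Pdgfra+ equal-number lists. In the first bin the values were 1.27, 2.03 and 1.01% against 2.03, 0.759 and 1.52%, where the populations overlapped. The last 2 bins held 21.7, 13.5 and 17.2% of the covered bases in Oct4+ and 44.0, 45.5 and 44.8% in Pdgfra+. Other protein-coding genes had 21.7, 22.7 and 22.0% of their covered bases there in Oct4+ and 24.6, 23.3 and 24.1% in Pdgfra+. With all peaks the share of genes covered rose from the first to the last bin in Oct4+ too, from 3.29 to 9.11%, from 3.04 to 6.84% and from 2.03 to 4.56%, and in Pdgfra+ from 3.54 to 32.9%, from 0.759 to 15.9% and from 2.28 to 26.8%. Zinc finger genes of Pdgfra+ cells were thus marked more towards their ends than their starts, and Oct4+ cells had a smaller rise in the same direction with all peaks.

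**Figure D3:**
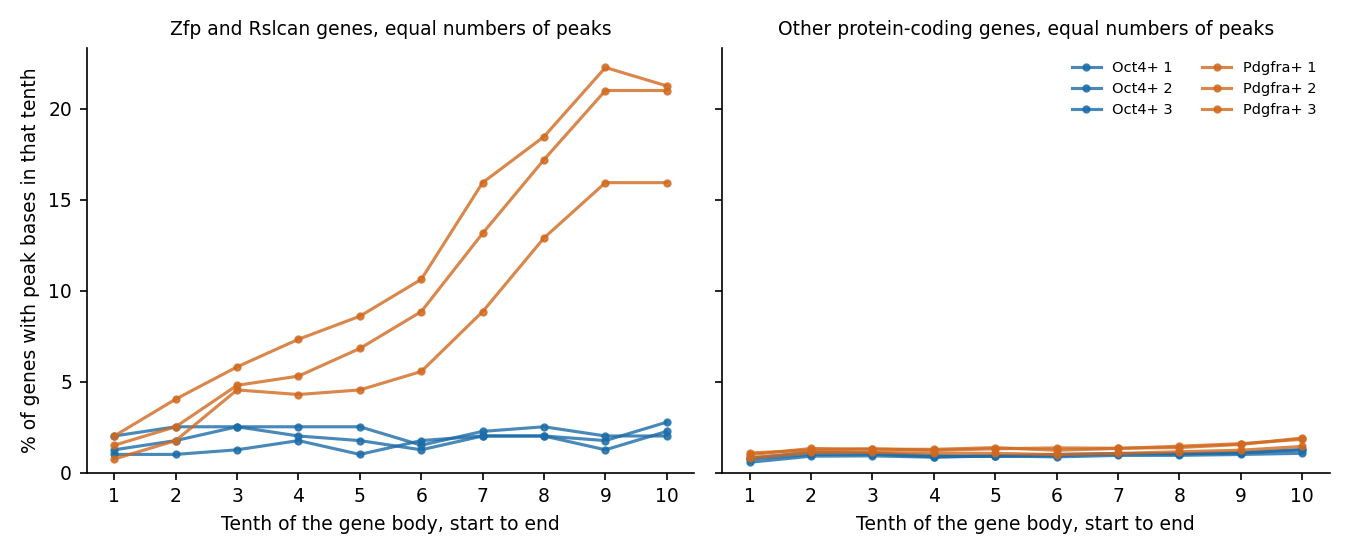
Share of genes, in percent, with H3K9me3 peak bases in each of 10 bins of the gene body from start to end, for 395 Zfp and Rslcan genes and for other protein-coding genes, with equal numbers of peaks. Each line is 1 library; Pdgfra+ lines climb to between 15.9 and 21.3% in the last bin of zinc finger genes, while Oct4+ lines stay between 1.01 and 2.78% along the gene.

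Single genes were called by presence in 3 of 3 lists of one population and 0 of 3 of the other. With all peaks 487 genes were Oct4-only (2.22% of 21911) and 190 Pdgfra-only (0.867%), and 698 were listed in 6 of 6 lists (3.19%). With equal numbers the order turned round, to 238 Oct4-only (1.09%) and 323 Pdgfra-only genes (1.47%), with 247 in 6 of 6 (1.13%). Under the strict rule used for regions above, 107 genes were Oct4-only (0.488%) and 120 Pdgfra-only (0.548%). Zinc finger genes made up 33 of the 120 strict Pdgfra-only genes and 4 of the 107 strict Oct4-only genes, and by translation 48 and 5, where 395 and 656 of 21911 genes are 1.80 and 2.99%. The 33 lay on 11 chromosomes, 11 of them on chromosome 7. The 4 Oct4-only ones were Zfp11, Zfp385c, Zfp455 and Rslcan18.

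Among the strict Pdgfra-only genes of at least 10 kb, Zfp599 (chr9:22247430-22259895) was covered most completely, over 69.5% of its 12.5 kb. Peaks covered 10.5, 5.81 and 9.69 kb of it in Pdgfra+ replicates 1 to 3 and none of it in Oct4+. Ifi202b, an interferon-inducible gene of the DNA-sensing p200 family, had 13.5, 6.26 and 12.3 kb covered. Klra17, a receptor of the Ly49 family of natural killer cells, had 22.3, 10.4 and 9.86 kb covered. The remaining genes with the most covered bases were Bcl11b, a zinc finger factor of T cells and neurons with 18.7, 6.72 and 5.23 kb, the C2H2 genes AW146154, Zfp930 and Zfp316, the drug-metabolising enzyme gene Cyp3a11, the protocadherin Pcdhga10 and Gm10717. Fam83h, needed for enamel, and the C2H2 gene Gm14124 joined them by share of the body, at 42.8 and 42.0%. Of these 12 genes 6 encode C2H2 proteins by translation. Bcl11b is the least even of them, with replicate 1 carrying most of its bases.

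Strict Oct4-only genes were of mixed function. Psmg4, a chaperone of proteasome assembly (chr13:34162964-34178173), had 8.28, 8.76 and 8.02 kb of its 15.2 kb covered in Oct4+ replicates 1 to 3 and none in Pdgfra+. Aoc1, which encodes the histamine-degrading diamine oxidase, had 10.1, 11.7 and 3.52 kb covered, and Chst13, a chondroitin sulfotransferase, 5.35, 8.06 and 5.65 kb. Adcy1, an adenylate cyclase of neurons, had 10.7, 9.05 and 4.39 kb covered. These values are from the equal-number lists. Coverage was present in all replicates and lowest in replicate 3 for Psmg4, Aoc1 and Adcy1. With all peaks, where replicate 3 is the shortest of the Oct4+ lists, coverage of these genes was lowest there as well. Others among the 10 with most covered bases were Reps1, Sh3gl2, Lair1 (an inhibitory immune receptor), Dnah7b (a ciliary dynein) and 1700019D03Rik, and 4930430F08Rik, Cmtm1 and Pank4 joined them by share of the body, between 23.7 and 28.4%.

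Clusters of at least 5 genes of a family with neighbouring starts within 500 kb were measured by the share of their span under peaks, and were called when all 3 libraries of one population lay above all 3 of the other. Of 132 clusters, 22 were called higher in Oct4+ (16.7%) and 10 in Pdgfra+ (7.58%) with all peaks, and 31 (23.5%) and 28 (21.2%) with equal numbers. Of the 17 C2H2 clusters, 6 were higher in Pdgfra+ with all peaks and 14 with equal numbers, and 0 were higher in Oct4+ with either.

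The cluster from Zfp84 to Zfp146 on chromosome 7 (chr7:29768552-30169750, 15 genes) had 6.43, 4.24 and 4.98% of its span under Oct4+ and 25.9, 14.2 and 21.5% under Pdgfra+ equal-number peaks. Zfp653 to Zfp810 on chromosome 9, which contains Zfp599, had 4.23, 2.93 and 2.66% against 25.9, 12.5 and 21.3%. Zfp628 to Zfp580 on chromosome 7 had 0, 0 and 0% against 17.2, 8.49 and 16.5%. These C2H2 clusters were called with all peaks and with equal numbers, as were Zfp551 to Zfp446 (chromosome 7), Zfp990 to Zfp933 (chromosome 4) and Zfp354c to Zfp354a (chromosome 11). Non-C2H2 clusters called for Pdgfra+ on both counts were the natural killer receptor cluster from Klre1 to Klra1 on chromosome 6, 2 olfactory receptor clusters (Olfr16 to Olfr418 on chromosome 1 and Olfr693 to Olfr716 on chromosome 7) and the lipocalins from Lcn12 to Lcn9 on chromosome 2. The natural killer cluster had 0.627, 0.625 and 0.361% under Oct4+ and 12.5, 3.77 and 5.27% under Pdgfra+ equal-number peaks.

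**Figure D4:**
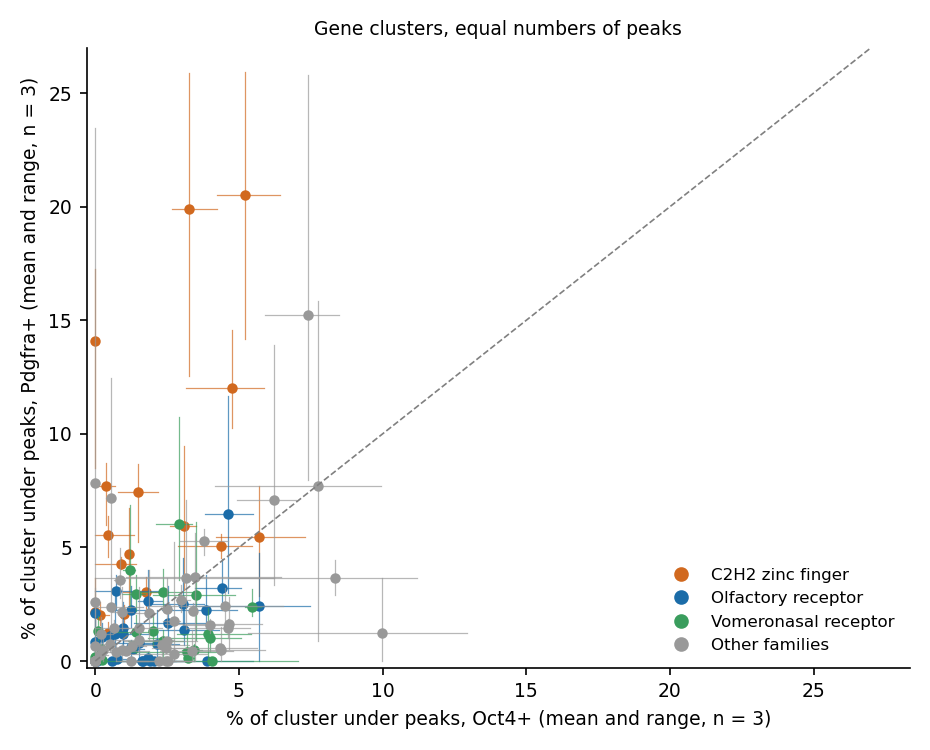
Share of the span of each of 132 gene clusters under H3K9me3 peaks, Oct4+ on the horizontal and Pdgfra+ on the vertical axis, in percent, with equal numbers of peaks. Points are means and lines ranges over 3 libraries, and the dashed line marks equality; C2H2 clusters lie mostly above it, 14 of 17 with no overlap of the populations.

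The 15 clusters called for Oct4+ on both counts were spread over several families. Olfactory receptors gave 4 of 33 clusters, vomeronasal receptors of type 1 gave 1 of 10 and of type 2 gave 2 of 9, and trace amine receptors 1 of 1, beside 15 of 132 over all families. These were the olfactory clusters starting at Olfr1358, Olfr56, Olfr221 and Olfr164, the vomeronasal clusters starting at Vmn1r40, Vmn2r1 and Vmn2r29, and the trace amine receptors from Taar1 to Taar9. The others were the Hist1 histone genes of chromosome 13 from Hist1h2bl to Hist1h2bj, the beta-defensins from Defb40 to Defb7, the major urinary proteins, the kallikreins, the cystatins and stefins from Csta1 to Stfa3 and the cytochrome P450 clusters Cyp4x1 to Cyp4b1 and Cyp2s1 to Cyp2t4. The Cyp2 cluster of chromosome 7 had 5.15, 5.61 and 2.22% under Oct4+ and 0.277, 0.692 and 0.688% under Pdgfra+ equal-number peaks. At the Hist1 cluster Oct4+ lists had 3.40, 2.53 and 1.29% under all peaks and Pdgfra+ lists 0, 0 and 0%. No Oct4+ library had over 5.92% of the span of any of these 15 clusters under equal-number peaks.

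The strict regions were then described by width, repeats and position. Oct4-only regions had a median width of 4763 bp and a median of 46.5% masked bases, Pdgfra-only regions 7599 bp and 23.6%, and the shared regions 8364 bp and 39.8%. Summits lay in protein-coding exons in 3.26% of the Oct4-only, 13.9% of the Pdgfra-only and 3.83% of the shared regions. Zinc finger genes were overlapped by 6 of 675 Oct4-only, 37 of 409 Pdgfra-only and 19 of 679 shared regions. Pdgfra-only regions were thus wider than Oct4-only ones and, of the 3 classes, the least repetitive and the most often exonic. The greater width was not particular to these regions. Over all peaks the median width was 3482, 3071.5 and 3086 bp in Pdgfra+ and 2112, 2281.5 and 2006 bp in Oct4+. With equal numbers it was 6462, 3071.5 and 3941 bp against 4099, 3931 and 2749 bp, where the populations overlapped.

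Outside chromosome 18, the highest-ranked Oct4-only regions were chr7:26685142-26697951, which overlaps Cyp2b23, chr12:114121452-114129256, 575 kb from Adam6a, and chr7:34020439-34039825, which overlaps Scgb1b27. The last had total signals (fragment coverage summed over bases, not scaled to depth) of 96471, 104471 and 41861 in Oct4+ replicates 1 to 3 and no listed peak in Pdgfra+. H3K27ac was also listed in these regions, in 1, 3 and 2 of 3 Oct4+ libraries in the order given. It was listed there in 0 of 3 Pdgfra+ libraries. Region chr7:30139428-30164656 at Zfp146 was the highest zinc finger region of Pdgfra+, with totals of 175158, 73505 and 130045. The Plec region chr15:76169670-76184615, with its summit in an exon of this cytoskeletal linker gene, had 137083, 66543 and 116879. H3K27ac was listed at the Zfp146 region in 0 of 3 libraries of either population. At the Plec region it was listed in 1 of 3 Oct4+ and 0 of 3 Pdgfra+ libraries.

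Intervals with high maximum signal headed the Pdgfra-only ranking. At chr9:35305212-35306086, 27.5 kb from Rpusd4, an interval of 0.875 kb reached maximum signals of 1129, 868 and 895 in Pdgfra+ replicates 1 to 3, where the median peak of these lists reached 10, 8 and 9. At chr11:3100005-3105888, 26.0 kb from Sfi1, the maxima were 169, 124 and 128. Neither interval was listed in any Oct4+ library. The sequence of the first was 86.1% masked and 23.0% of its distinct 12-base sequences also occurred in Gm10717, a gene model on chromosome 9 that was 95.7% masked and fully covered in all 3 Pdgfra+ lists. The second was 5.88 kb wide and 51.9% masked, and 5.53% of its distinct 12-base sequences also occurred in Gm10717. Such high signal in repeated sequence, narrow at the first interval, is given with its values only. The sources used here do not say how reads with several placements were treated. The part of such reads in these intervals was not tested.

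Regions shared by all 6 lists were headed by chr9:123927477-123934463, 27.7 kb from the chemokine receptor gene Ccr1, with total signals of 336266, 303655 and 148188 in Oct4+ and 248347, 119132 and 207958 in Pdgfra+. Next came chr4:152482108-152527291 in an intron of Nphp4, a gene of the primary cilium, with 100263, 87244 and 59407 against 452929, 202835 and 278452. At the centromere-proximal end of the assembled chromosome 3, chr3:3000032-3035326 had 180321, 169758 and 76819 against 601620, 297065 and 373512. H3K27ac was also listed in these shared regions, in 1, 1 and 3 of 3 Oct4+ libraries in the order given. It was listed there in 0 of 3 Pdgfra+ libraries. Introns of the adhesion genes Sdk2, Cdh4 and Sdk1 were also among the 12 highest-ranked, with regions 59.1, 68.0 and 31.6 kb wide.

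Genes covered in 6 of 6 lists included Zfp445, whose product binds imprinting control regions. Equal-number peaks covered 4.93, 6.34 and 3.50 kb of its 21.5 kb in Oct4+ and 18.9, 18.03 and 18.9 kb in Pdgfra+. Zfp445 was thus listed in all 6 libraries, with all 3 Pdgfra+ libraries above all 3 Oct4+ libraries. Vmn1r43 had 10.2, 12.5 and 9.92 kb against 7.58, 4.36 and 8.47 kb. The other genes of this group were Polrmt (the mitochondrial RNA polymerase), Colgalt1 (a collagen glycosyltransferase) and Itln1 (intelectin), covered over 50.7, 47.9 and 45.0% of their bodies on average.

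Imprinted genes were the list most often marked, in both populations. Of 30 protein-coding imprinted genes, 23, 22 and 22 had a peak in Oct4+ replicates 1 to 3 and 25, 16 and 24 in Pdgfra+ replicates 1 to 3, and 13 were listed in 6 of 6. The populations overlapped in these counts. As shares they were 76.7, 73.3 and 73.3% in Oct4+ and 83.3, 53.3 and 80% in Pdgfra+. All genes stood at 18.4, 15.5 and 10.7% and at 17.8, 5.68 and 12.3%, with 3.19% listed in 6 of 6. The 13 imprinted genes were Igf2r, Kcnq1, Gnas, Plagl1, Inpp5f, Nap1l5, Herc3, Trappc9, H13, Zrsr1, Commd1, Nnat and Blcap. Of these Nap1l5 lies in Herc3, Zrsr1 in Commd1 and Nnat in Blcap, so that their peaks are partly the same. With the equal-number lists 21, 21 and 14 were marked in Oct4+ and 19, 16 and 20 in Pdgfra+. These are 70, 70 and 46.7% and 63.3, 53.3 and 66.7%, against 4.81, 4.94 and 4.92% and 5.38, 5.68 and 6.63% of all genes.

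Few imprinted genes fell into one population. Peg10 and Sgce, paternally expressed neighbours on chromosome 6, were Oct4-only: Peg10 had 2673, 6108 and 611 bp covered and Sgce 3460, 6513 and 3270 bp. Igf2, the paternally expressed growth factor, and Slc38a4, an amino acid transporter, were Pdgfra-only, with 3172, 2474 and 1568 bp and with 2510, 2816 and 2751 bp. With all peaks that is 2 of 30 in each direction (6.67%), against 2.22 and 0.867% of all genes. With equal numbers of peaks 0 were Oct4-only and 2 Pdgfra-only (6.67%), against 1.09 and 1.47% of all genes. These 2 were Igf2 and Rtl1. On that scale Peg10 and Sgce were in 2 of 3 Oct4+ lists and Slc38a4 in 2 of 3 Pdgfra+ lists. The non-coding RNA gene Meg3 had 21298, 2316 and 10081 bp covered in Pdgfra+ and none in Oct4+. Airn, the antisense RNA at Igf2r, was listed in all 6 libraries with 7038, 4782 and 1866 bp in Oct4+ and 33375, 11059 and 18722 bp in Pdgfra+. Kcnq1ot1 and Peg13 were listed in all 6 as well. In the Dlk1 and Meg3 domain of chromosome 12 the mark was listed mainly in Pdgfra+, where Rtl1 was listed in 3 of 3 lists and Dlk1 in 2 of 3, against 1 of 3 and 0 of 3 in Oct4+.

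ZFP57, which protects imprints, is known to bind the hexamer TGCCGC where its CpG is methylated. The hexamer or its complement GCGGCA stood in the summit windows of 2 of the 6 shared regions over imprinted genes, in 6.48% of all shared windows, 4.74% of Oct4-only and 2.93% of Pdgfra-only windows. It also stood in 11.6% of the 32817 promoters, so that a match is a description and not a site.

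Germline and 2-cell genes were marked more often in Oct4+ lists, mostly by peaks outside the equal-number lists. Of 25 such genes, 17, 12 and 8 had a peak in Oct4+ replicates 1 to 3 and 6, 2 and 4 in Pdgfra+ replicates 1 to 3, without overlap. With equal numbers of peaks the counts were 2, 2 and 3 against 2, 2 and 2. Oct4-only genes were Dpep3, a testis dipeptidase, Stk31, a testis kinase, Brdt, the testis bromodomain protein, and Tcstv3, expressed at the 2-cell stage. That is 4 of 25 (16.0%, against 2.22% of all genes), and 0 were Pdgfra-only. Stk31 had 4505, 4593 and 3265 bp covered in Oct4+ and none in Pdgfra+, and was Oct4-only with equal numbers too, as was Tcstv3. The meiotic gene Sycp1 had 6240 and 4791 bp in Oct4+ replicates 1 and 2 and none elsewhere. Duxf3, the activator of the 2-cell programme, was listed in all 6 libraries, with 1622, 1344 and 1671 bp in Oct4+ and 1710, 1600 and 1825 bp in Pdgfra+. The Oct4+ shares of this list, 68, 48 and 32%, stood against 18.4, 15.5 and 10.7% of all genes in the same libraries. The Pdgfra+ shares, 24, 8 and 16%, stood against 17.8, 5.68 and 12.3%.

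**Figure D5:**
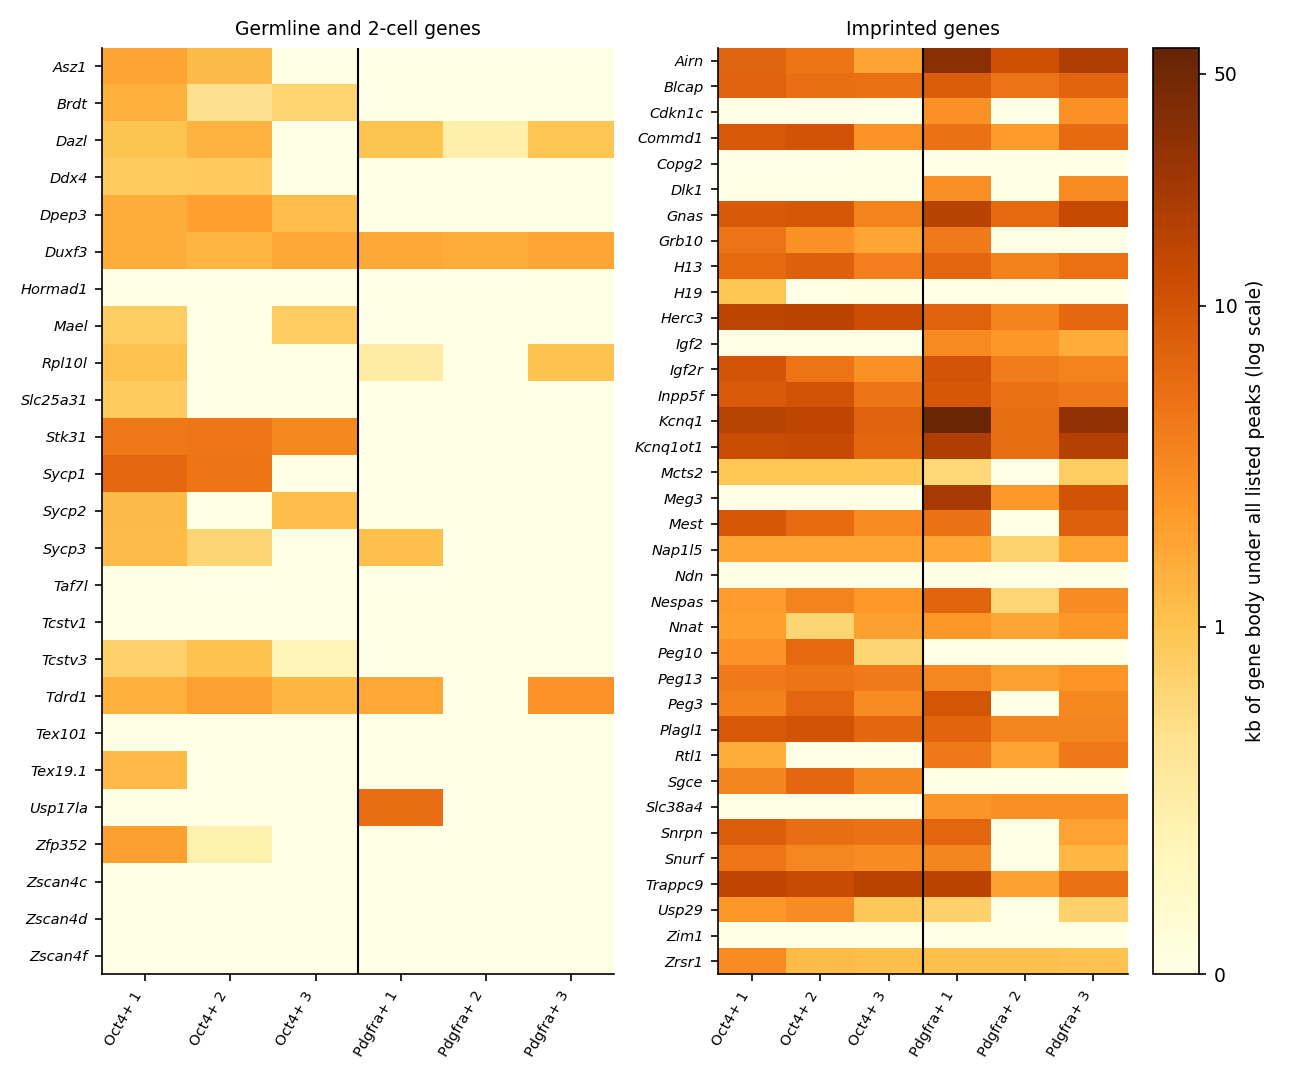
Length of gene body under all listed H3K9me3 peaks (kb, log colour scale) for germline and 2-cell genes and for imprinted genes, by library. Germline genes such as Stk31 and Dpep3 are coloured in the 3 Oct4+ columns alone, most imprinted genes are coloured in both populations, and Meg3 and Igf2 are coloured in the 3 Pdgfra+ columns alone.

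Lineage genes were counted in the same way. Of 25 pluripotency genes 1, 2 and 2 had a peak in Oct4+ and 1, 1 and 1 in Pdgfra+, where Esrrb was Oct4-only (5314, 7329 and 1660 bp) and Sall4 Pdgfra-only (8810, 2067 and 2917 bp). Of 25 endoderm genes 2, 1 and 2 were marked in Oct4+ and 1, 0 and 1 in Pdgfra+, and the laminin gene Lama1 was Oct4-only (1187, 1837 and 2182 bp). Each of these calls was 1 of 25 genes (4%), against 2.22% of all genes for Oct4-only and 0.867% for Pdgfra-only. Among equal numbers of peaks Esrrb was in 1 of 3 Oct4+ lists, Sall4 in 2 of 3 Pdgfra+ lists and Lama1 in 0 of 3 Oct4+ lists. Of 25 trophectoderm genes 5, 3 and 2 against 3, 2 and 4 were marked, with the growth factor receptor gene Fgfr2 in 6 of 6. The annotation draws Fgfr2 over chr7:130162451-133123350, far longer than most genes. With equal numbers of peaks Ets2, a transcription factor of trophoblast, was Pdgfra-only, 1 of 25 (4%, against 1.47% of all genes). On that scale 0 genes of the pluripotency and endoderm lists were called for either population. With all peaks the pluripotency and endoderm shares, 0 to 8% per library, lay below the share of all genes in the same library. Trophectoderm shares, 20, 12 and 8% in Oct4+ and 12, 8 and 16% in Pdgfra+, lay on both sides of the 18.4, 15.5 and 10.7% and the 17.8, 5.68 and 12.3% of all genes. With equal numbers every Oct4+ list held 1 gene (4%), while Pdgfra+ lists held 3, 2 and 3 genes (12, 8 and 12%), against 4.81, 4.94 and 4.92% and 5.38, 5.68 and 6.63% of all genes.

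Fibroblast genes were marked in 5, 7 and 1 of 25 cases in Oct4+ and in 4, 1 and 5 in Pdgfra+, with 0 called for either population with all peaks. These are 20, 28 and 4% and 16, 4 and 20%, on both sides of the shares of all genes. With equal numbers Pdgfrb was Pdgfra-only, 1 of 25 (4%, against 1.47% of all genes). Of 26 genes for the H3K9me3 machinery 4, 3 and 3 were marked in Oct4+ and 2, 0 and 3 in Pdgfra+, or 15.4, 11.5 and 11.5% and 7.69, 0 and 11.5%, against 18.4, 15.5 and 10.7% and 17.8, 5.68 and 12.3% of all genes. Pphln1, which encodes the HUSH subunit periphilin, was Oct4-only with all peaks and with equal numbers (5894, 5729 and 4206 bp), 1 of 26 (3.85%, against 2.22 and 1.09% of all genes). Atf7ip, a partner of SETDB1, was listed in 3 of 3 Oct4+ and 2 of 3 Pdgfra+ lists.

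Other marks were read at the starts of the zinc finger genes with H3K9me3. Among the 90 Zfp and Rslcan genes listed in 3 of 3 Pdgfra+ H3K9me3 lists, 17.8% ± 5.56 had an H3K27ac peak within 1 kb of their start in the Pdgfra+ libraries, close to the 19.3% ± 3.55 of all protein-coding genes. In the Oct4+ libraries the same genes had H3K27ac at 44.1% ± 18.1 and all genes at 33.3% ± 14.5. H3K27me3, the Polycomb mark, was at the starts of 0.370% ± 0.642 of them in Pdgfra+, against 7.17% ± 5.77 of all genes. All Zfp and Rslcan genes, with or without H3K9me3, had H3K27ac at 21.3% ± 6.27 in Pdgfra+ and 41.6% ± 15.7 in Oct4+ libraries. Their H3K27me3 share in Pdgfra+ was 1.60% ± 1.25. Zinc finger genes with H3K9me3 thus included genes with an active mark at their start and few with H3K27me3. In the Oct4+ libraries H3K27me3 was at the starts of 1.48% ± 0.642 of the same 90 genes. It was at 4.47% ± 3.05 of all Zfp and Rslcan genes there, against 10.02% ± 5.65 of all protein-coding genes. In both populations H3K27me3 was thus rarer at the starts of zinc finger genes as a whole than of all genes, not only of those with H3K9me3.

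Strict Oct4-only genes had H3K27ac at 7.48, 16.8 and 9.35% of their starts in Pdgfra+ replicates 1 to 3, where all genes had 16.1, 23.1 and 18.6%. In the Oct4+ libraries they had 36.4, 42.1 and 13.1%, against 36.3, 46.1 and 17.5% of all genes. The Pdgfra+ shares of these genes, which lack a listed H3K9me3 peak there, were below those of all genes in each library. Strict Pdgfra-only genes had 19.2, 26.7 and 23.3% in Pdgfra+ and 48.3, 53.3 and 20% in Oct4+.

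By chromosome, the share of covered bases lay higher in all 3 Oct4+ lists for 12 of 21 chromosomes (57.1%) and in all 3 Pdgfra+ lists for 5 (23.8%). Equal numbers of peaks gave 11 (52.4%) and 5 (23.8%). Chromosome 2 held 6.31, 6.25 and 6.40% of the Oct4+ and 8.84, 8.37 and 8.50% of the Pdgfra+ bases with all peaks. Chromosome 12 held 3.94, 3.90 and 3.91% against 5.03, 6.21 and 5.27%. The populations did not overlap on either chromosome, and Oct4+ lists lay below and Pdgfra+ lists above the genome shares of 6.74 and 4.42%. Each of these differences had an exact permutation p of 0.10 and an adjusted p of 0.124 over 21 chromosomes.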

How the data were processed

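H3K9me3 was profiled by CUT&Tag in 3 Oct4+ and 3 Pdgfra+ libraries of nEnd, grouped by their labels. The deposited peak lists hold intervals in GRCm38 (mm10) with a total and a maximum signal per peak, called by the authors with SEACR in stringent mode against IgG, per library and without pooling, after alignment with Bowtie2. The submitters' processing notes also name bcl2fastq 2.19.1, SAMtools 1.12, deepTools and bedtools 2.26.0. Signal is not scaled to depth here and the number of reads is unknown, so that list length and library depth cannot be told apart, and the library measures, gene, region and cluster counts, gene lists and chromosomes were compared with all peaks and with the 5322 peaks of highest total signal per list. Sequence counts per library used the latter alone. Peaks were joined to GENCODE vM21 gene bodies and to repeat masking of the GRCm38.p6 sequence from RefSeq (Python 3.11.15, NumPy 2.4.6, pandas 2.3.3, SciPy 1.17.1, Matplotlib 3.10.9). C2H2 genes by translation have at least 3 matches to the finger pattern.

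Library measures were compared by exact two-sided permutation over 20 splits, with Benjamini-Hochberg adjustment over 5 measures or 21 chromosomes. Gene, region and cluster calls are counts without a test. Named genes are, per direction, the 10 strict genes with most bases under peaks and the 5 of at least 10 kb with the highest share, the 5 such genes in 6 of 6 equal-number lists with the highest share, the called members of the lists, the clusters called with all peaks and with equal numbers, and the 3 highest-ranked regions of each class outside chromosome 18. Genes and regions named outside this rule (Zfp11, Zfp385c, Zfp455, Rslcan18, Sycp1, Dlk1, Atf7ip, and the regions at Plec, Sdk2, Cdh4 and Sdk1) were chosen after their values were seen. The members, gene lists and clusters were chosen with earlier results of these data known. The calling code was tested on simulated lists. Alternatives were equal numbers by maximum signal, equal covered length, a common signal threshold, peaks of at least 1000 bases, gene starts ± 20 kb, each library left out and a replicate block. Those for the zinc finger excess, the translated gene list and clusters without 1 library were chosen after seeing the data. The lists of the double-positive population were not used here. A gene and a sequence that meet the rules above are not reported here.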

Additional observations from a re-analysis of the deposited data

How the results depend on the processing

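The repeat, gene body base and chromosome X shares and the concordance kept their direction under every alternative run. Covered length (Oct4+ minus Pdgfra+ -6.20 Mb) ran from -28.1 to 23.8 Mb with 1 library left out, and turned to 5.74 without Oct4+ replicate 3 and to 23.8 without Pdgfra+ replicate 1; with equal covered length it has no value by construction, and with a common threshold it was -29.5 Mb. The difference in genes with a peak (2.94 points) turned to -1.01 with equal numbers by total signal, -1.51 by maximum signal and -4.18 with a common threshold, and ran from -0.182 to 5.89 with 1 library left out, turning without Pdgfra+ replicate 2; it was 0.0487 with equal covered length and 6.24 within 20 kb of gene starts. Oct4-only genes, 487, became 238 with equal numbers by total signal, 157 by maximum signal, 198 with equal covered length, 107 with a common threshold, 845 within 20 kb of gene starts and 493 to 874 with 1 library left out (874 without Oct4+ replicate 3). Pdgfra-only genes, 190, became 323, 308 and 287 with equal numbers by total signal, by maximum signal and a common threshold, and 195 to 552 with 1 library left out (552 without Pdgfra+ replicate 2). Oct4-only regions, 4529, became 1434, 982, 1206 and 787 under the first 4 of these settings and 4563 to 8644 with 1 library left out (8644 without Oct4+ replicate 3). Pdgfra-only regions, 870, became 454 with equal covered length and 887 to 3592 with 1 library left out (3592 without Pdgfra+ replicate 2). Clusters higher in Oct4+, 22, ran from 22 to 52 (52 without Pdgfra+ replicate 1), and clusters higher in Pdgfra+, 10, became 28 with equal numbers and 10 to 23 with 1 library left out (23 without Pdgfra+ replicate 2). The zinc finger excess, Pdgfra+ minus Oct4+, was 18.6 points, 15.2 within 20 kb of gene starts, at least 15.9 under the other settings and at least 16.9 with 1 library left out. Leaving out a library removes a condition of a gene or cluster call, so that these counts could only stay or rise in that setting. Where a value moved, the cause was not tested. Depth limits all absences.

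The labels do not say whether replicate numbers pair the libraries. Over 2473 bins of 1 Mb the deviations of same-numbered libraries correlated at 0.216, -0.0217 and 0.0654. No correlation of differently numbered libraries stands beside these values, so they cannot decide whether the libraries are paired. With the replicate block, which leaves the differences as they are (repeat share 11.4 points), the exact sign-flip p was 0.25 for the repeat, gene body base and chromosome X shares, the smallest that 3 pairs can give (adjusted p = 0.417), and 0.75 for covered length and genes with a peak.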
